A study of Mus musculus with 2 samples.

Results

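The cells described here were called acinar cells of the exocrine pancreas by their enzyme RNA. They were caught in 2 single-cell RNA libraries of mouse pancreatic tumors. The mice had been injected in the pancreas with KPC cells, a mouse pancreatic cancer line, and the tumors were taken about 2 weeks later. One library was labelled FLOX (flox mice) and the other MCT1-KO (PSCs-MCT1-/- mice, in which tamoxifen and Col1a2-CreERT2 remove Slc16a1, the gene of the lactate transporter MCT1, in Col1a2-expressing cells such as pancreatic stellate cells). Both libraries carry the tissue label tumor, so nothing in the labels places a cell in tumor or in the pancreas beside it, and neither the age of these mice nor the number of mice behind a library was given. Each genotype was 1 library. There is therefore no test between genotypes, and every interval below covers counting error only.

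A cell was called acinar when 10 genes of digestive enzymes and cofactors (the chymotrypsinogen gene Ctrb1, the trypsinogen genes Prss2, Try4, Try5 and 2210010C04Rik, the elastase genes Cela1 and Cela3b, Cpa1, Pnlip and Clps, called the selecting genes) made up at least 5% of its UMIs, or counted RNA molecules, while Ptprc was at 0 and C1qa, C1qb and C1qc together at 1 UMI or fewer. It also had to pass the limits set for all cells, which were at least 500 UMIs, 200 to 5000 genes and at most 8% mitochondrial UMIs. Of 20428 kept cells, 189 met the rule. They were 11 of 8739 cells of the FLOX library (0.126%, exact 95% interval 0.0629 to 0.225%) and 178 of 11689 cells of the MCT1-KO library (1.52%, 1.31 to 1.76%). The limits on Ptprc and C1q took away 7 and 29 further cells. No barcode was acinar in both libraries. Because the values of the selecting genes chose the cells, those values are given as a description.

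Acinar cells make, store and release the digestive enzymes of the pancreas. Each cell devotes most of its RNA to a small set of secreted proteins, among them trypsinogens, chymotrypsinogens, elastases, carboxypeptidases and lipases, which leave the cell in zymogen granules. The transcription factor complex PTF1 drives these genes in the adult gland. When the pancreas is inflamed or carries a tumor, acinar cells are known to raise the Reg genes, which encode secreted lectins of tissue defence and repair, and to lose enzyme expression as they take on duct-like features.

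The acinar cells were shallow. Their median was 1005 UMIs (594 to 3872) in FLOX and 1012 UMIs (504 to 17246) in MCT1-KO, against 4079.5 and 3874 UMIs in the other kept cells of the 2 libraries. Their UMIs were also spread over fewer genes. Each cell was thinned to 500 UMIs. The median acinar cell then showed 183 genes in FLOX and 228 in MCT1-KO, and the median other cell 354 and 353. The rule picks cells with many UMIs in the selecting genes, which by itself lowers these numbers, so they are a description. Whether the RNA outside those genes was less varied was not tested. The acinar cells of the FLOX library held 13876 UMIs in all and those of MCT1-KO 260218, and 27.9% of the FLOX sum came from 1 cell of 3872 UMIs. Values for FLOX therefore rest on few molecules for any gene that is not among the most abundant.

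The share of the selecting genes differed widely from cell to cell. In FLOX it ran from 6.14% to 46.1% with a median of 35.8%, and in MCT1-KO from 5.08% to 70.4% with a median of 26.4%. Of the FLOX cells, 2 lay between 5 and 20% and 9 at 20% or more. The MCT1-KO cells lay on both sides of 20% in similar numbers, 79 below it and 99 at or above it. The FLOX library had 1 acinar cell at 5 to 7% and none at 3 to 5%, its closest cells standing at 6.14% inside and 2.87% outside. In MCT1-KO there was no gap there, with 33 acinar cells at 5 to 7%, a further 82 cells at 3 to 5%, and the closest values at 5.08% and 4.94%.

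**Figure D1:**
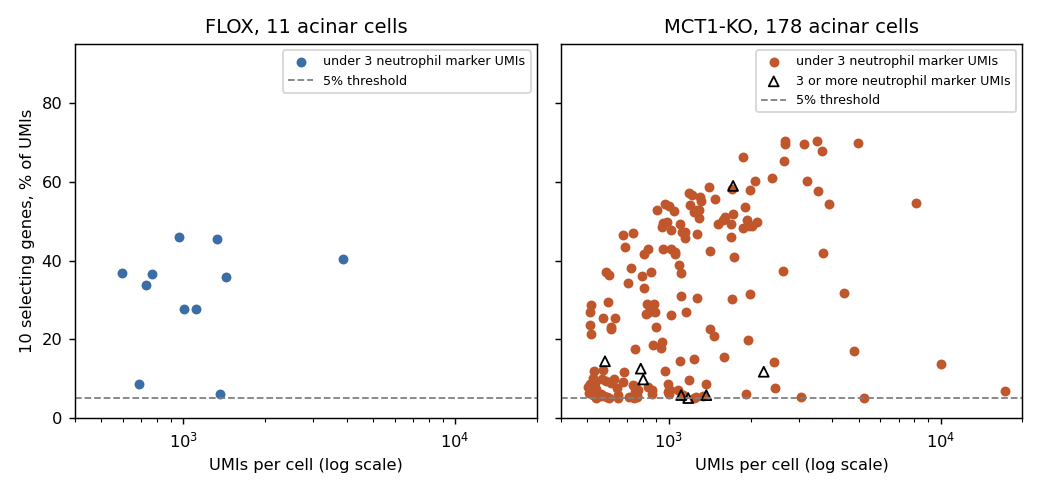
Share of the 10 selecting genes in the UMIs of each acinar cell (vertical axis, %) against its UMIs (horizontal axis, log scale), 1 point a cell, FLOX left and MCT1-KO right. Triangles are the 8 cells with 3 or more UMIs of neutrophil markers, and the dashed line is the 5% threshold, above which the MCT1-KO points run from 5.08% to 70.4%.

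Markers of other cell types were looked for in the acinar cells. The 5 neutrophil markers (S100a8, S100a9, Csf3r, Retnlg and Cxcr2) gave 590 UMIs in the MCT1-KO acinar cells and 1 in the FLOX ones. Of those 590 UMIs, 579 lay in 8 cells, whose share of selecting genes was 5.09 to 59.0% with a median of 10.8%. Levels below are in CPM (UMIs of a gene scaled to one common total, so that they can be set side by side). In cells picked for their enzymes, CPM of any other gene is lowered by the picking, so a second scale, chosen after the data were seen, counts only the UMIs outside the selecting, other secreted and Reg genes (named outside CPM). These UMIs were 46.8% of all acinar UMIs in FLOX and 55.2% in MCT1-KO, against 99.9% and 97.6% in barcodes of 10 to 100 UMIs. Krt8 and Krt18 are keratins of epithelial cells, acinar cells included. In the MCT1-KO cells of 5 to 20% they summed to 1568.6 outside CPM (1324 to 1845). In those of 20% or more they summed to 1942 (1576 to 2367), with intervals that overlap. In CPM they stood at 1368.5 and 638, in the opposite order. Vim, an intermediate filament of mesenchymal cells, was lower in the MCT1-KO cells of 20% or more on both scales, with 2127 and 1268 outside CPM and 1856 and 417 CPM. Ribosomal protein genes made up 23.1% of UMIs in the MCT1-KO cells of 5 to 20% and 8.24% in those of 20% or more. Their share was 23.7% in the other kept cells, and enzyme UMIs lower it. Other secreted acinar proteins stood at 20481 CPM at 5 to 20% and 119949 CPM at 20% or more. Whether all cells of 5 to 20% were acinar was not tested. Without the 8 neutrophil-marker cells, 81 genes were past 2-fold higher in MCT1-KO and 10 lower of 337 compared, beside 89 and 12 of 356 with them. The part of the epithelial and mesenchymal markers was not tested, and some of the results below, not all, are given for the cells of 20% or more as well.

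Other marker lists were present to unequal degrees. The 7 markers listed for KPC tumor epithelium had 4 UMIs in FLOX and 252 in MCT1-KO, or 288 and 968 CPM (ratio 3.36, 1.30 to 12.4). Of these UMIs, Krt8 gave 0 and 125 and Krt18 4 and 119, so the list mostly reads these 2 keratins. The markers were found in 72 of the 178 MCT1-KO cells. Their outside CPM in MCT1-KO was 1756 (1545 to 1986), above the 1072 of the other kept cells and the 1425 of barcodes of 10 to 100 UMIs, while their CPM was 0.905 times that of the other kept cells. The ratio between libraries was 3.85 (1.04 to 32.2) in the cells of 20% or more. The 7 myeloid markers had 24 and 281 UMIs, or 1730 and 1080 CPM, of which 19 and 176 UMIs were Apoe, and the 7 ductal markers had 4 and 64 UMIs. Their part in the results was not tested. Markers of several other types were at or near 0. The 6 dendritic markers had no UMI in either library, the 8 islet markers had 0 UMIs in FLOX and 4 in MCT1-KO, the 8 T and NK markers 1 and 4, and the 5 endothelial markers 0 and 1. The limits on Ptprc and C1q take away immune cells, so low immune counts were partly set by the rule. In free RNA, dendritic, islet and endothelial markers stood at only 19.9, 4.95 and 29.0 CPM in FLOX and 13.0, 20.8 and 19.3 CPM in MCT1-KO. A count of 0 in FLOX allowed up to 216 CPM, so these counts do not show purity. The 7 fibroblast and stellate markers had 7 and 180 UMIs, or 1078 and 1254 outside CPM, below the 2285 and 1779 of the other kept cells. In MCT1-KO 1 cell held 55 of the 180. The deepest MCT1-KO cell had 17246 UMIs, 3733 genes and 6.86% selecting genes. It held 53 of the 105 UMIs of Acta2, a marker of this list, 62 of the 262 of Vim and 38 of the 178 of Ifrd1. What kind of cell it is was not tested.

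Malat1, a long RNA that stays in the nucleus, was looked at only after its level in one FLOX cell had been seen. Over UMIs outside acinar products, the acinar cells of 20% or more held 2941 outside CPM (1608 to 4934) in FLOX and 4419 (3858 to 5038) in MCT1-KO. The other kept cells of 500 to 2000 UMIs, which are nearer to them in depth, held 10709 and 5037 outside CPM, and barcodes of 10 to 100 UMIs 2330 and 2344. All other kept cells held 12915 and 9874 outside CPM. The MCT1-KO level thus lay above that of free RNA, near that of other cells of 500 to 2000 UMIs and below that of all other cells, while the FLOX level, from 14 UMIs, had an interval that holds the free RNA level. In CPM over all UMIs the order against free RNA was the opposite, with 1184 and 1452 in these acinar cells and 2329 and 2288 in free RNA. As a share of all UMIs, mitochondrial UMIs had medians of 1.18% in FLOX and 0.813% in MCT1-KO against 2.23% and 2.53% in the other cells. Gm42418 and AY036118, which overlap ribosomal RNA, made up 8.29% and 5.11% of acinar UMIs and 1.89% and 1.63% of the others.

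Acinar RNA was not confined to acinar cells. The barcodes of 10 to 100 UMIs, which are too shallow to hold a cell and show the RNA free in the suspension, carried the selecting genes at 0.0334% of their UMIs in FLOX and 1.82% in MCT1-KO, a ratio of 54.5 (53.4 to 55.5). Over all barcodes of a library, the selecting genes had 57921 UMIs in FLOX and 1023875 in MCT1-KO. The acinar cells held 7.96% and 8.39% of these. Barcodes of 10 to 100 UMIs held 18.0% and 45.0%, and other kept cells 32.5% and 13.7%. The number of acinar cells per library and the amount of acinar RNA outside them thus differed in the same direction. How many acinar cells the tissue held, how many were lost or broken in dissociation and how the tissue was cut cannot be told apart here.

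**Figure D2:**
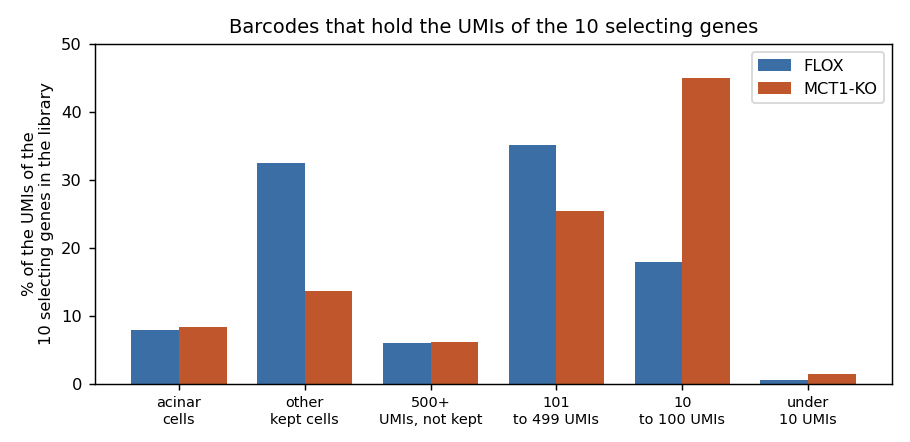
Where the UMIs of the 10 selecting genes lay, as % of all their UMIs in the library (vertical axis), in 6 kinds of barcodes that do not overlap (horizontal axis), with FLOX and MCT1-KO bars side by side. The acinar cells hold 7.96% and 8.39%, and barcodes of 10 to 100 UMIs 18.0% and 45.0%.

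The label acinar was checked against the 4 marker genes Ctrb1, Prss2, Cela1 and Cpa1. Ctrb1 (ENSMUSG00000031957, chromosome 8), a chymotrypsinogen, had a UMI in all 189 cells. Its level ran from 20468 to 238024 CPM in the FLOX cells with a median of 145919, and from 4162 to 334226 CPM in the MCT1-KO cells with a median of 96157. Prss2 (ENSMUSG00000057163, chromosome 6), a trypsinogen, also had a UMI in every cell, with a median of 59880 CPM (10965 to 73605) in FLOX and 20744 CPM (1346 to 70079) in MCT1-KO. Cela1, a pancreatic elastase, was found in 9 of 11 and 174 of 178 cells, and Cpa1, a carboxypeptidase, in 11 and 166. The FLOX cells lay within the range of the MCT1-KO cells for Ctrb1 but reached slightly above it for Prss2. All 4 markers were used by the rule, so their presence is no separate support for the label.

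Genes of the same program that the rule did not use were high as well. Free RNA also carries them, so they do not tell acinar cells from other cells that hold acinar RNA. Of 26 further secreted proteins of acinar cells, 25 were measured, 22 had a UMI in an acinar cell and 19 had at least 50 UMIs over the acinar cells of both libraries. Together they made up 98660 CPM (93502 to 104028) in FLOX and 79168 CPM (78091 to 80257) in MCT1-KO. That was 971 times (910 to 1035) their level in barcodes of 10 to 100 UMIs in FLOX, and 22.3 times (22.0 to 22.7) in MCT1-KO. The smaller multiple in MCT1-KO goes with the higher level of free acinar RNA there, 3545 against 102 CPM. Within a library, cells with more of the selecting genes also had more of these proteins, with a Spearman rho of 0.836 over 11 FLOX cells and 0.920 over 178 MCT1-KO cells, where both shares have the same UMI total below them.

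Set against the other kept cells, the 10 genes with the largest multiples were secreted products or parts of the secretory pathway. In FLOX they included Prss3, Ctrc, Serpini2, Pnliprp2, Ctrl, Cpb1, Cel, Reg2 and Rnase1. In MCT1-KO they included Pnliprp2, Pdia2, Serpini2, Gp2, Cpb1, Pnliprp1, Dmbt1, Klk1 and Reg3d. Cpb1, a carboxypeptidase that the rule left out, stood at 14557.5 CPM in FLOX acinar cells and 8.13 CPM in the other cells, and at 15468 and 48.7 CPM in MCT1-KO. Pdia2, a protein disulfide isomerase of the pancreatic endoplasmic reticulum, stood at 477 CPM in the MCT1-KO acinar cells and 1.43 CPM in the others. Gp2, a membrane protein of zymogen granules, stood at 2767 and 8.64 CPM. Since the cells were chosen by genes of this program, these multiples describe them and test nothing.

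**Figure D3:**
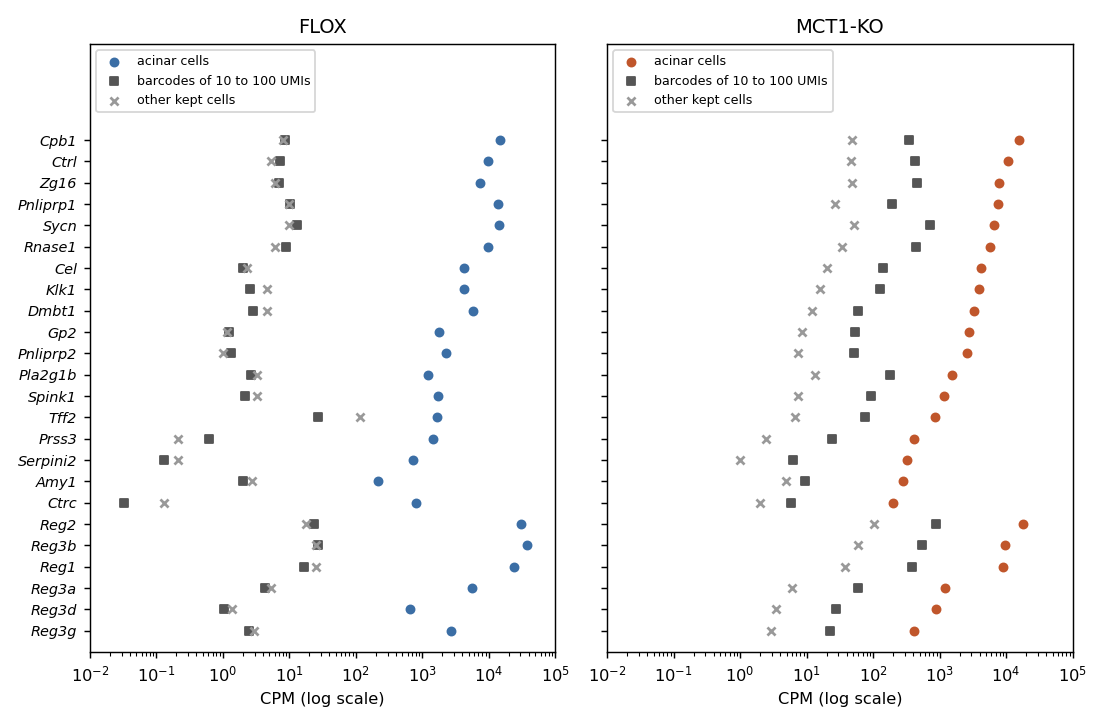
Level in CPM (horizontal axis, log scale) of other secreted proteins and 6 Reg genes, all with at least 50 acinar UMIs, in acinar cells (circles), barcodes of 10 to 100 UMIs (squares) and other kept cells (crosses), FLOX left and MCT1-KO right. Every circle lies to the right of the square and cross of the same gene.

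The factors behind this program had few UMIs. Ptf1a, the subunit that gives PTF1 its name, had 0 UMIs in FLOX and 2 in MCT1-KO. Bhlha15 (Mist1), a factor of the mature secretory cell, had none in either library. Nr5a2, a nuclear receptor of acinar identity, had 0 and 3. Xbp1, which expands the endoplasmic reticulum, had 0 UMIs in FLOX and 26 in MCT1-KO, the latter being 99.9 CPM (65.3 to 146) beside 71.8 CPM in free RNA. Rbpjl, the PTF1 subunit of the adult gland, had 7 and 4 UMIs, but 6 of the 7 FLOX UMIs came from 1 cell. At 13876 UMIs a count of 0 in FLOX allowed a level of up to 216 CPM (3 UMIs), so absence of these factors was not shown. Of the 10 factors listed, 0 reached 50 UMIs. Their sum was nevertheless above free RNA in FLOX, with 577 CPM (249 to 1136) against 152 CPM, from 8 UMIs of which 1 cell held 7. In MCT1-KO it was 223 CPM from 58 UMIs against 129.7 CPM (1.72 times, 1.30 to 2.23). Against the other kept cells it stood at 2.07 times (0.893 to 4.08) in FLOX and 0.875 times (0.664 to 1.13) in MCT1-KO. Both of these intervals hold 1, so in CPM the sum was not shown to be above other cells. In outside CPM it was 1232 (532 to 2427) against 152 in FLOX and 404 (307 to 522) against 133 in MCT1-KO. The FLOX cells of 20% or more held 1 of the 8 UMIs, and their 210 outside CPM (5.32 to 1170) had an interval that holds the free RNA level.

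Between the libraries, 356 genes with at least 50 acinar UMIs over both were compared. Since MCT1-KO held 260218 of these UMIs and FLOX 13876, a gene passed this minimum almost only through MCT1-KO, which favours the higher side, and with a minimum of 200 UMIs 11.6% of genes were past 2-fold higher. The CPM ratio of MCT1-KO over FLOX was 2 or more for 89 genes (25.0%) and 0.5 or less for 12 (3.37%). Where the counting interval also had to leave out 1, the numbers were 29 (8.15%) and 11 (3.09%). Of the 89 higher genes, 63 had under 3 UMIs in FLOX and 23 had none, so that their ratio has no upper limit. Set against a floor of 3 UMIs over the FLOX cells, 20 of these 23 had a bound under 2 and are not shown to be past 2-fold. With bounds in place of the ratios of these 23, 69 genes (19.4%) were past 2-fold higher, and 21 (5.90%) with an interval that left out 1. Genes with 1 or 2 FLOX UMIs keep their plain ratio in this count, so it is no bound for them. The higher genes leading by ratio were Ifrd1 (178 UMIs against 1), an interferon-related developmental regulator, Cfl1 (106 against 1), an actin-severing protein, and Gpx4 (103 against 1), a lipid peroxidase. Beside them stood Retnlg (95 against 1) and S100a8 (305 against 0, 5.42-fold at the floor of 3 UMIs, with an interval from 4.38). The last 2 are neutrophil genes, and 1 MCT1-KO cell held 68.5% of the S100a8 UMIs and 94.7% of the Retnlg UMIs. The ratio was 9.49 (1.68 to 377) for Ifrd1, and the intervals of Cfl1 and Gpx4 held 1. The lower side was of another kind. Of its 12 genes, 9 were secreted acinar products (Ctrc, Prss2, Prss3, Reg1, Reg3a, Reg3b, Reg3g, Serpini2 and Sycn), and the others were Apoe, Rpl15 and Uqcrq. For Ctrc the FLOX value rests on 1 cell, without which it had 0 UMIs there. Apoe, a lipid carrier abundant in macrophages, had a ratio of 0.494 that turned to 4.89 without the Ptprc and C1q limits. In the cells of 20% or more, Prss2 (0.642), Sycn (0.617), Serpini2 (0.616) and Reg1 (0.507) were no longer past 2-fold, and Sycn (0.688) and Prss2 (0.601) were not without the deepest cell of each library. Without the Ptprc and C1q limits, Ctrc (0.805) and Prss3 (0.763) were not, nor was Serpini2. Prss2, at 0.498 over all acinar cells, lay at the limit itself. Of the 35 selecting, secreted and Reg genes compared, 0 were past 2-fold on the higher side over all acinar cells. Cela1 (2.23), Pnlip (2.14) and Gp2 (2.07) were in the cells of 20% or more, Cela1 (2.39) and Pnlip (2.21) without the deepest cell of each library, and Amy1 (2.89), an amylase, without the Ptprc and C1q limits. Among the MCT1-KO cells of 20% or more against the FLOX ones, 13 of 180 genes were past 2-fold higher and 21 lower, so higher genes did not outnumber lower ones there.

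Of the 6 Reg genes compared, 4 were past 2-fold lower in MCT1-KO with an interval that left out 1, beside 3.09% of all genes. Reg3b (ENSMUSG00000071356), a secreted lectin induced in pancreatitis, stood at 37763 CPM (34598.5 to 41139) in the FLOX acinar cells, where the cells ran from 3655 to 83582 CPM with a median of 38304. In MCT1-KO it stood at 9515 CPM (9144 to 9897), the cells running from 0 to 89950 CPM with a median of 4160. The ratio was 0.252 (0.229 to 0.277). The cells of the libraries overlapped, but the MCT1-KO median was near the lowest FLOX cell. The ratio was 0.217 (0.168 to 0.282) for Reg3a and 0.157 (0.107 to 0.235) for Reg3g, both of the same lectin group, and 0.385 (0.343 to 0.434) for Reg1. The 37 FLOX UMIs of Reg3g lay in 5 of 11 cells, 12 of them in 1 cell. Among cells of 20% or more, the median cell of each library had no Reg3g UMI. Reg2, a close relative of Reg1, was lower by less, with 0.591 (0.535 to 0.654). Reg3d did not share the direction, with 9 UMIs in FLOX, 226 in MCT1-KO and a ratio of 1.34 (0.693 to 2.97) whose interval holds 1. The Reg genes lie together on chromosome 6 apart from Reg4, which had no UMI, and are alike in sequence, so reads may have been shared among them. In the cells of 20% or more, the ratios of Reg3g, Reg3a, Reg3b and Reg1 were 0.187, 0.275, 0.328 and 0.507. These cells were not matched between libraries in their share of selecting genes. In cells of 20 to 40% (6 in FLOX and 34 in MCT1-KO) Reg3b stood at 44980 and 20823 CPM. In cells of 40% or more (3 and 65) it stood at 38063 and 11383 CPM.

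CPM depends on how much other RNA a barcode holds, so the genes were also set per 100 UMIs of the selecting genes, a scale chosen after the data were seen. Reg3b stood at 11.4 in FLOX and 2.88 in MCT1-KO, a ratio of 0.254 (0.231 to 0.279). In the cells of 20% or more, the 9 FLOX cells ran from 3.82 to 30.1 with a median of 9.85. The 99 MCT1-KO cells ran from 0 to 37.0 with a median of 2.06, and 69 of them lay below the lowest FLOX cell, 10 without any Reg3b UMI. The share of selecting genes reached 46.1% in FLOX and 70.4% in MCT1-KO, so these cells were not matched in it. The free RNA of barcodes of 10 to 100 UMIs, which shares no barcode with the acinar cells but comes from the same suspension, had Reg3b at 8.16 and 2.95 (ratio 0.361, 0.337 to 0.387). The other kept cells had 8.07 and 3.39 (0.420, 0.396 to 0.445). For Reg3a the ratio was 0.218 in acinar cells, 0.247 in free RNA and 0.203 in other kept cells, for Reg3g 0.158, 0.167 and 0.173, and for Reg1 0.388, 0.412 and 0.263. Per UMI of the selecting genes, these 4 genes thus stood higher in FLOX in each of the 3 sets of barcodes. Which cells made them in free RNA and in other kept cells was not tested. Reg2 and Reg3d did not keep 1 direction over the sets. Reg2 had 0.596 in acinar cells, 0.691 in free RNA and 1.02 (0.958 to 1.09) in other kept cells. Reg3d had 1.35 in acinar cells but 0.471 and 0.453 in the other sets.

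**Figure D4:**
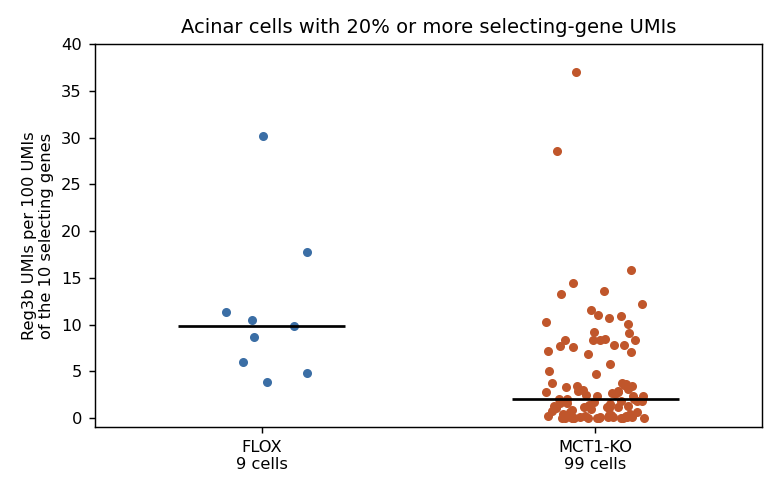
Reg3b UMIs per 100 UMIs of the 10 selecting genes (vertical axis) in the acinar cells with 20% or more selecting-gene UMIs, 1 point a cell, 9 FLOX and 99 MCT1-KO cells, spread sideways for sight only. Lines are the medians, 9.85 and 2.06; the highest points of both libraries reach over 30.

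Shares of cells with a Reg3b UMI went the same way. With every cell thinned to 500 UMIs, 90.9% of the 11 FLOX cells (58.7 to 99.8%) and 71.9% of the 178 MCT1-KO cells (64.7 to 78.4%) had one. Among kept cells with a Ptprc UMI, which should lack the gene, the share was 0.618% and 4.12%. Both acinar shares were far above this background, and their intervals overlap.

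Because these Reg genes moved together, and apart from most enzymes, short stretches before the start sites of 2 of them and of 2 enzymes are shown. The enzyme gene Prss2 was itself lower in MCT1-KO (0.498), so the pairs are no contrast of lower and level genes. They are the 150 bases before the RefSeq start of each gene, on the gene's strand, in build GRCm38.p6. Capitals mark the letters CACCTG and TTTCCC, which the E-box and TC-box of the PTF1 element hold, and TTCNNNGAA, the core that STAT factors bind, each on either strand. Reg3b lies at chr6:78370735-78370884 on the plus strand, where its last 24 bases are exon in GENCODE, Reg3g at chr6:78468875-78469024 on the minus strand, Cela1 at chr15:100687921-100688070 on the minus strand and Prss2 at chr6:41521626-41521775 on the plus strand.
Reg3b: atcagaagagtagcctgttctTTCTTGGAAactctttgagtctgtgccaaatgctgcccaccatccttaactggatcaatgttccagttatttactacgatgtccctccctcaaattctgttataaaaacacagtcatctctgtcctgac
Reg3g: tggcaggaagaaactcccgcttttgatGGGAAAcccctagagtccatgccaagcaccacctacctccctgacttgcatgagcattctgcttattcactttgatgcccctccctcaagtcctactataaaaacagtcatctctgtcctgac
Cela1: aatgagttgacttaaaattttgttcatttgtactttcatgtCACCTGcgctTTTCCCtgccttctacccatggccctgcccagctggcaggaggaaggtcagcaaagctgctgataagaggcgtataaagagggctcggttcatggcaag
Prss2: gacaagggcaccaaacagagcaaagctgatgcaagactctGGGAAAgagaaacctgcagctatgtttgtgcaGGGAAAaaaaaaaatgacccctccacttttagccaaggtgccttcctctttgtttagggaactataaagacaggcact
In these stretches Reg3b showed 1 STAT core, Reg3g 1 TTTCCC, Cela1 a CACCTG and a TTTCCC close together, and Prss2 2 TTTCCC. Reg3a and Reg1, also lower in MCT1-KO, are not shown and held none of these letters in their 150 bases. In the longer window of 250 bases Reg3b also held 1 CACCTG and 1 TTTCCC, and Prss2 1 CACCTG and 1 TTCNNNGAA. The contrast seen in the shorter stretches thus did not hold there. Over 250 bases, CACCTG was found before 5 of 8 selecting genes with a window and 5 of 7 Reg genes, beside 17.2% of 32851 windows of all genes. TTTCCC was found before 4 of 8 and 4 of 7, beside 21.9%, and TTCNNNGAA before 1 of 8 and 2 of 7, beside 7.02%. The 2 Reg genes with TTCNNNGAA were Reg3b and Reg3d, and Reg3d did not share the lower direction over the acinar cells. Of the 19 other secreted proteins with a window, 11 had CACCTG, 4 (21.1%) TTTCCC and 1 (5.26%) TTCNNNGAA. Matches are letters in a window and show no binding.

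The enzymes themselves did not move as one. The selecting genes sum to 100 on this scale, so a lower share of one raises the shares of the others, and their values also chose the cells. Per 100 UMIs of the selecting genes, Ctrb1 was level (42.3 in FLOX and 41.8 in MCT1-KO, ratio 0.990, 0.946 to 1.04). Prss2 was lower in MCT1-KO, at 8.37 against 16.7 (0.501, 0.465 to 0.541). In the cells of 20% or more it ran from 12.1 to 21.9 in FLOX and from 3.91 to 13.8 in MCT1-KO, so that the libraries hardly overlapped. In free RNA the Prss2 ratio was 0.718 and in other kept cells 0.687. Pnlip, the pancreatic triglyceride lipase, was higher in MCT1-KO (2.23 and 3.66, ratio 1.64, 1.35 to 2.01), and also in free RNA (1.81) and other kept cells (2.53). Cela1 had a ratio of 1.61 (1.38 to 1.88), and 2210010C04Rik, a trypsinogen, 1.38 (1.21 to 1.58). Colipase (Clps), the cofactor of Pnlip, had 0.769 (0.683 to 0.869). No direction is given for these last 2, since in CPM Clps turned to 1.07 without the deepest cells, and 2210010C04Rik to 0.997 at a threshold of 2% and 0.959 without the Ptprc and C1q limits. Prss2, Try4, Try5 and 2210010C04Rik belong to one family of near-identical trypsinogen genes, so reads may have been split among them.

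**Figure D5:**
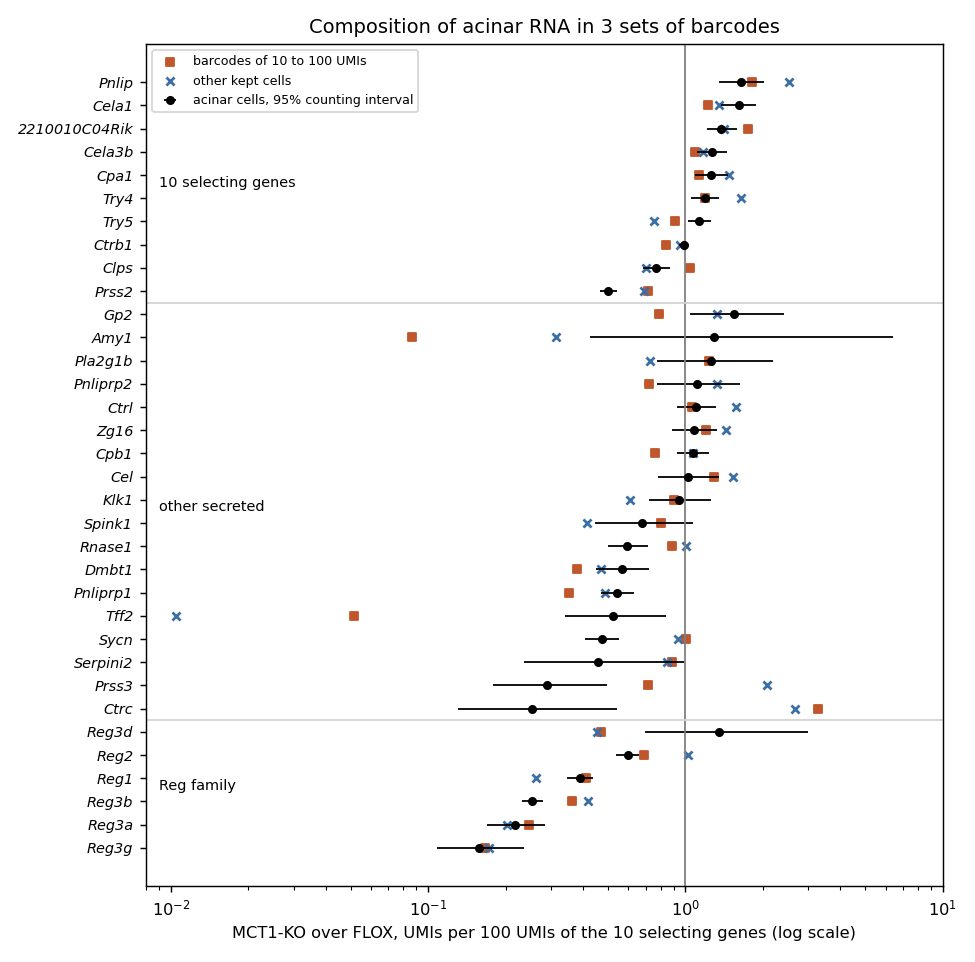
MCT1-KO over FLOX ratio of UMIs per 100 UMIs of the 10 selecting genes (horizontal axis, log scale) for Reg genes, other secreted proteins and the selecting genes, in acinar cells (circles with 95% counting intervals), barcodes of 10 to 100 UMIs (squares) and other kept cells (crosses). Reg3g, Reg3a, Reg3b and Reg1 lie below 0.5 in all 3 sets.

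Among the other secreted proteins the median ratio on this scale was 0.944 over 19 genes, with 8 intervals below 1 and 1 above it. It was 1.09 in the cells of 20% or more, with 6 below 1 and 3 above it, so no direction of the list is given. Sycn, a zymogen granule membrane protein called syncollin, was lower in MCT1-KO (4.27 and 2.02, ratio 0.473, 0.408 to 0.550), yet level in free RNA at 1.01. Pnliprp1, a lipase-related protein, had 0.542 (0.468 to 0.632), with 0.353 in free RNA and 0.489 in other kept cells. Rnase1, the pancreatic ribonuclease, had 0.595. Dmbt1, a secreted scavenger glycoprotein, had 0.566, but its CPM ratio turned to 1.01 (0.847 to 1.21) without the Ptprc and C1q limits. Cpb1, Ctrl (a chymotrypsin), Cel (the bile-salt lipase) and Zg16 (a granule lectin) had ratios from 1.02 to 1.10 with intervals that hold 1, and Gp2 had 1.55 (1.04 to 2.41). Prss3 and Ctrc were low in both libraries, with 20 and 11 UMIs in FLOX, and all 11 Ctrc UMIs came from 1 cell. Tff2, a trefoil peptide, stood at 114 CPM in other FLOX cells and 6.71 CPM in other MCT1-KO cells, so its values outside acinar cells do not follow acinar RNA. In CPM, the 19 genes and the rest of their list summed to a MCT1-KO over FLOX ratio of 0.802 (0.760 to 0.848), which turned to 1.13 (1.07 to 1.20) in the cells of 20% or more, so no direction of the sum is given.

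The apparatus that makes and exports the enzymes was thinly covered, and 3 of its 20 listed genes reached 50 UMIs. The list stood at 2378 CPM in FLOX and 2190 CPM in MCT1-KO (ratio 0.921, 0.648 to 1.35). Ssr4, a subunit at the translocation channel, was counted past 2-fold with 0 UMIs in FLOX and 77 in MCT1-KO, but its bound was 1.37-fold. Its 536 outside CPM (423 to 670) lay beside 459.8 in free RNA. Over UMIs outside acinar products the whole list was above free RNA, with 5082 (3498 to 7136) against 1936 in FLOX and 3971 (3652 to 4311) against 1875 in MCT1-KO. Genes of endoplasmic reticulum stress stood at 2018 and 2160 CPM (1.07, 0.732 to 1.63), with Hspa5, the main chaperone of that compartment, at 360 and 427 CPM. Atf3, a stress-induced factor, had 3 and 146 UMIs (2.59, 0.871 to 12.7). This list held 4312 outside CPM (2865 to 6232) in FLOX and 3915 (3598 to 4253) in MCT1-KO, against 3198, which the FLOX interval holds, and 2105 in free RNA.

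Immediate-early genes, which respond within minutes to stimulation and to tissue dissociation, summed to 3099 CPM in FLOX and 6210 CPM in MCT1-KO (ratio 2.00, 1.48 to 2.78). Of 10 compared, 6 were past 2-fold higher, and 3 of them (Fos, Fosb and Jun) with an interval that left out 1, beside 25.0% and 8.15% of all genes. Fosb had 0 UMIs in FLOX and 90 in MCT1-KO and a bound of 1.60-fold, so 5 and 2 remain when bounds are used. Fos had 6 UMIs in FLOX and 263 in MCT1-KO. No direction is given for Fos and Jun, since at a threshold of 2% their ratios turned from 2.34 to 0.811 and from 3.32 to 0.666. Over UMIs outside acinar products the list held 6621.5 outside CPM (4792 to 8919) in FLOX, below the 12230 of free RNA, and 11258 (10716 to 11820) in MCT1-KO, above the 9017 of free RNA. In the cells of 20% or more the ratio of the list was 1.33 (0.925 to 1.98), with 2622 and 3485 CPM, and the interval holds 1. Of 6 duct-like and injury genes compared, Krt8 (0 and 125 UMIs) and Vim (6 and 262) were counted past 2-fold higher with an interval that left out 1. The share of all genes so counted was 5.90% when bounds are used. Krt8 stood at 2.22-fold at the floor of 3 UMIs, but its counting interval began at 1.78-fold. Lcn2 (0 and 106) had a bound of 1.88-fold and is not shown to be past 2-fold, and Vim turned to a ratio of 0.986 in the cells of 20% or more. The list stood at 2955 CPM in FLOX and 4538.5 CPM in MCT1-KO. It held 6313.5 outside CPM (4531 to 8565) in FLOX against 8250 in free RNA, which that interval holds, and 8227 (7765 to 8710) in MCT1-KO against 7445. Of its 1181 UMIs in MCT1-KO, 821 lay in the cells of 5 to 20%, and 1 cell held 212, so the MCT1-KO level rests mostly on cells of low share. In the cells of 20% or more the ratio of the list was 1.21 (0.791 to 1.93), and the interval holds 1. Clu, a chaperone of injured acinar cells, had 10 UMIs in FLOX and 248 in MCT1-KO, of which 1 cell held 90.0% and 1 cell 54.0%. Over all acinar cells its CPM was 5.12 and 6.27 times that of free RNA. Without those cells it was 75.8 CPM in FLOX, below the 141 CPM of free RNA, and 456 CPM in MCT1-KO, above the 152 CPM there, so no direction is given for FLOX.

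Interferon and antigen presentation genes were below free RNA in both libraries, with 5698 outside CPM (4012 to 7853) against 17545 in FLOX and 4250 (3919 to 4601) against 10043 in MCT1-KO. Heat shock genes held 2156 outside CPM against 5678 in FLOX and 2452 (2203 to 2722) against 2679 in MCT1-KO. Autophagy and lysosome genes held 1848 against 3399 in FLOX and 2954 (2679 to 3249) against 2902 in MCT1-KO. In MCT1-KO the intervals of these last 2 lists hold the free RNA level. In its cells of 20% or more, heat shock genes held 1783 outside CPM (1434 to 2192), below that level, while the interval of the autophagy list still held it. Of the heat shock and autophagy genes, 2 of 2 and 2 of 3 compared were past 2-fold higher, beside 25.0% of all genes, and 0 of them with an interval that left out 1, beside 8.15%. One of the autophagy genes counts only through 0 UMIs in FLOX. Lactate transport and glycolysis genes had 6 UMIs in FLOX and 230 in MCT1-KO (432 and 884 CPM, ratio 2.04, 0.925 to 5.63, which holds 1). Of the 230 UMIs, 162 lay in the cells of 5 to 20%. In the cells of 20% or more the list stood at 423 and 443 CPM (1.05, 0.427 to 3.33). Slc16a1, the deleted gene, had 0 and 2 UMIs in acinar cells, and Slc16a3, the lactate exporter MCT4, had 0 in FLOX. Acinar cells are not the cells in which Col1a2-CreERT2 acts, and the deletion cannot be read in them. In the other kept cells Slc16a1 stood at 26.1 CPM in FLOX and 37.7 CPM in MCT1-KO. These cells are all types together and include types in which the deletion is not driven, so these levels are no check of the label.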

How the data were processed

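Whole-number UMI counts per gene and barcode were deposited by the authors for 2 libraries, 1 of flox and 1 of PSCs-MCT1-/- mice. Per the labels, libraries came from a SeekOne MM microwell kit; the methods of the study name other kits. The authors trimmed reads with Fastp, used SeekOneTools and filtered cells in Seurat (4.0.0) at 200 to 5000 genes, and their notes name the human build GRCh38, although the 32285 features carry mouse identifiers. The matrices hold unfiltered barcodes, with 177334432 UMIs in FLOX and 151118092 in MCT1-KO.

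Members and gene lists were chosen with earlier results of these data known. UMIs were summed over the acinar cells of a library and given as CPM with exact Poisson intervals of 95%, ratios with conditional exact intervals and shares with Clopper-Pearson intervals. PCR and sequencing beyond UMIs were not modelled, and intervals cover counting error only. With 1 library per group no count model was fitted. Genes with at least 50 UMIs were compared and called past 2-fold. A floor of 3 UMIs was used against 0. Genes named are those of the fixed lists with at least 50 UMIs, the 5 leading by ratio each way and the 10 leading against other cells; Malat1, Rpl15 and Uqcrq and genes under 50 UMIs were named after their values were seen. Doublets were not removed in the main result; the 8% of cells with the highest Scrublet scores (scanpy 1.11.5) were left out as an alternative, which took away 0 FLOX and 3 MCT1-KO acinar cells. Of 59 barcodes kept in both libraries, 1 was acinar, in MCT1-KO. One listed symbol with 2 identifiers was left out, and 1 gene is counted in the lists but not reported here by name. The interval was tested on simulated Poisson counts of the 2-library comparison over 356 genes. Called past 2-fold with an interval that left out 1 were 98.0% of 4-fold higher and 78.0% of 4-fold lower genes. So were 32.0% of 2-fold higher, 38.0% of 2-fold lower and 3.21% of unchanged genes. The simulation had no spread between cells, so it does not cover calls from UMIs gathered in 1 cell. Gene positions came from GENCODE vM21. Python 3.11.15, numpy 2.4.6 and scipy 1.17.1 were used.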

Additional observations from a re-analysis of the deposited data

Results flagged for a closer look

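Barcodes outside the limits on cells also carried acinar RNA. In MCT1-KO, 71 barcodes of 500 or more UMIs met the acinar rule but held under 200 genes, against 4 in FLOX, and they were 39.0% of the 182 barcodes of that depth and gene number in MCT1-KO and 4.76% of 84 in FLOX. Their median share of selecting genes was 49.9% in MCT1-KO, above the 26.4% of the acinar cells, with a median of 626 UMIs. Per 100 UMIs of the selecting genes they held 3.02 Reg3b UMIs in MCT1-KO and 9.43 in FLOX, beside 2.88 and 11.4 in the acinar cells. A further 7 barcodes in MCT1-KO and 2 in FLOX met the rule but held over 8% mitochondrial UMIs. The acinar cells of the report do not include these barcodes, and those with under 200 genes enter the setting with no minimum of genes.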

How the results depend on the processing

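Each choice was changed alone. The cause of a difference was not tested except where the setting itself takes away cells or genes. The share of acinar cells in MCT1-KO was 3.33% at a threshold of 2% selecting genes, 1.02% at 10%, 0.847% at 20%, 0.991% with at least 1000 UMIs, 1.77% without the Ptprc and C1q limits and 2.08% with no minimum of genes. The MCT1-KO over FLOX ratio of the other secreted proteins was 0.385, 0.975 and 1.13 at the thresholds of 2, 10 and 20%, 0.857 without the Ptprc and C1q limits, 0.874 with no minimum of genes, 0.950 without the deepest cell of each library and 0.681 over UMIs outside acinar secreted and Reg genes. Their level over free RNA in MCT1-KO was 10.7, 29.2 and 33.8 at these thresholds, 24.9 with 1000 UMIs, 18.8 without the limits, 24.2 with no minimum of genes, 22.7 without cells of 3 or more neutrophil UMIs and 39.6 against barcodes of 20 to 50 UMIs. In FLOX it was 1045 at both 10 and 20%, 1044 with 1000 UMIs and 765 without the limits.

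Genes past 2-fold higher in MCT1-KO numbered 589 at 2%, 34 at 10%, 13 at 20%, 151 without the limits, 148 after free RNA was subtracted, and 336 and 18 with minimums of 20 and 200 UMIs. Those lower numbered 66 at 2%, 21 at 20%, 24 without the limits, 24 after subtraction, 21 over UMIs outside secreted genes, and 47 and 5 with the 2 minimums. At 20% the higher genes were 7.22% and the lower 11.7% of those compared, so the balance turned.

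Of 66 genes with alternatives, 28 stayed on the same side of 1 under all of them, and not every gene that crossed is named here. Among those that crossed, Ctrb1 ran from 0.697 to 1.32, Atf3 from 0.835 to 4.86 and Cd74 from 0.163 to 2.85. Ratios that crossed 1 at 2% included Cela3b 0.914, Try4 0.854, Try5 0.797, Cpa1 0.903, 2210010C04Rik 0.997, Fos 0.811 and Jun 0.666. At 20% Vim had 0.986. Without the limits Cela3b had 0.963, Try5 0.737, 2210010C04Rik 0.959, Dmbt1 1.01 and Apoe 4.89. Clps had 1.07 without the deepest cells, Try5 0.954 over UMIs outside secreted genes, and Try4 and Try5 0.943 and 0.826 as means over cells. Over 16 alternatives Reg3b ran from 0.186 to 0.328, Reg3a from 0.152 to 0.275, Reg3g from 0.0935 to 0.227, Reg1 from 0.251 to 0.507 and Reg2 from 0.435 to 0.738, while Reg3d ran from 0.473 to 1.64. Settings without a gene minimum and without neutrophil-marker cells were chosen after seeing the data. No paired analysis was possible because each group is 1 library. With 13876 FLOX UMIs, ratios of genes with few FLOX UMIs are poorly bounded.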

Other observations

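One FLOX acinar cell stood apart from the other 10. It held 861 genes in 1368 UMIs, more genes than any other acinar cell of that library. Its selecting genes made up only 6.14% of its UMIs. Malat1 was 2.27% of its UMIs and 0.120% of those of the other 10 cells together. It held 6 of the 7 Rbpjl UMIs of the library, all 6 UMIs of Chrm3, the muscarinic receptor through which nerves trigger enzyme release, all 11 of Ctrc, a chymotrypsin that degrades trypsinogen, and 5 of the 6 of Sel1l, a part of the pathway that clears misfolded proteins. Its Ctrb1 share was 2.05% against 15.4% in the other 10. It was singled out after its values were seen, and it is 1 cell.

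Cells with more Reg than other secreted UMIs were 6 of 11 in FLOX and 30 of 178 in MCT1-KO. The Spearman rho of the share of Reg genes with the share of selecting genes was 0.345 over the 11 FLOX cells, too few to tell from no relation, and 0.667 over the 178 MCT1-KO cells, where both shares have the cell's UMI total below them. The relation was not a steady rise for Reg3b. In MCT1-KO it stood at 3073 CPM in cells of 5 to 10%, 4924 at 10 to 20%, 20823 at 20 to 40% and 11383 at 40% or more.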
